A study of Mus musculus with 12 samples.

Results

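The distal end of a mouse autosome was taken as its last 3 Mb, measured back from the mm10 length of each of chromosomes 1 to 19. All H3K9me3 peaks lying within these 19 regions were described, in 6 lists that had each been called over their own input. The control P1 list had 4365 such peaks of 280580 listed, and the Alb-D2KO P1 list had 4090 of 273767. At P5 there were 4153 of 265920 in control and 4240 of 268693 in Alb-D2KO. In the adult there were 4919 of 292552 in control and 4814 of 286124 in Alb-D2KO. The positions were checked against the assembly. Every end closes with a run of unread bases (N) of at least 100 kb, and 18 of the 19 assembled sequences close with a run of the telomere hexamer. Between 0 and 2 peaks per list crossed the inner border of an end, which were not counted as members, while their bases inside the end were counted as covered.

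Mouse chromosomes carry the centromere close to one end, and the other, the distal end, closes with a telomere at the tip of the long arm. The telomere is a tandem array of the hexamer TTAGGG bound by protective proteins, and the DNA next to it is rich in repeats and recently duplicated genes. H3K9me3, trimethylation of lysine 9 of histone H3, is written by enzymes of the Suv39h and Setdb1 type and bound by HP1 proteins, and it marks compact, silent chromatin at satellites, transposons, telomeric DNA and large clusters of zinc finger and olfactory receptor genes.

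Liver of C57BL/6 mice was studied at 3 ages, P1 and P5 (days 1 and 5 after birth) and adult, with 1 H3K9me3 library and 1 input library for each genotype and age. Alb-D2KO mice carry a floxed Dio2 gene, which encodes the type 2 deiodinase that activates thyroid hormone, and a Cre recombinase driven by the albumin promoter, so that the deletion is directed to hepatocytes while the other cells of the liver keep the gene. Controls were Cre animals without that deletion. By the study's methods, chromatin at P1 and P5 came from pools of 3 livers and adult chromatin from individual livers. The methods describe 2 such pools per genotype at P1 and repeat sequencing of all samples, so that a list may merge more than 1 sample or run. The labels give 1 library per group, so the spread between replicates is unknown, no test was run, and each value below describes single libraries. The lists give no read counts, so that depth is unknown. Covered share means the percentage of the assembled bases of a region that lies under listed peaks. The lists of the 2 ages differed outside the ends too, in a direction that depended on the limit. Peaks with a −log10 p above 2 covered 4.19% (control) and 4.03% (Alb-D2KO) of the autosomes outside the ends in the adult. In the neonatal lists they covered 2.06% to 2.40%. With all listed peaks the order was the reverse, with 16.5% and 16.0% in the adult lists against 19.4% to 20.9%. Age and library cannot be told apart, and neither can genotype and library.

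Sequences under or beside some of the strongest peaks are shown first. They were read from the GRCm38 assembly (mm10) on the forward strand, 5′ to 3′. Chromosome 4 was the only autosome whose assembly did not close with the hexamer. Its last 150 bases (chr4:156357967-156358116) repeat the 16-base unit GTGGTCTATCTGAGAG, in capitals, with small changes.
chromosome 4: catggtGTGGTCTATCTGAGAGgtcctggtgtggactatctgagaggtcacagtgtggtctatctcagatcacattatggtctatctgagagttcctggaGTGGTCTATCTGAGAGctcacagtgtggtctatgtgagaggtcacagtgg
No neonatal peak covered these 150 bases. The strong peaks beside them ended 176 bases before the last assembled base in control P1 and 233 in Alb-D2KO P1. At P5 they ended 821 bases before it in control and 249 in Alb-D2KO. The unit, searched on both strands of the 19 autosomes, was found 78 times in the end of chromosome 4 and 1 time elsewhere, on chromosome 12. The strongest peak of the Alb-D2KO P1 list within the ends, on chromosome 6 (first 150 bases, chr6:147236600-147236749), lay over a run of tatc repeats.
chromosome 6: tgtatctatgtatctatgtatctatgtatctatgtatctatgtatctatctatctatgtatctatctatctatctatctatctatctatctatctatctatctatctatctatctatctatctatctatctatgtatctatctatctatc
The peak on chromosome 2 that was the strongest of the ends in the other 3 neonatal lists (first 200 bases, chr2:181917349-181917548) ended 94092 bases before the last assembled base in control P1.
chromosome 2: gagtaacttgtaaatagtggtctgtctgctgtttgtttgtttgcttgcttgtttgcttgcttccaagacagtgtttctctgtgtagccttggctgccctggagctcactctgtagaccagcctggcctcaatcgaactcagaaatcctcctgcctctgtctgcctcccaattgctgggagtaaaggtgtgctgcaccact

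Peaks reached the outermost sequence of most autosomes in the adult lists, and of fewer autosomes in the neonatal lists. The last assembled 1 kb was touched by a listed peak on 8 of 19 autosomes in control P1, 8 in Alb-D2KO P1, 10 in control P5 and 8 in Alb-D2KO P5. It was touched on 15 in control adult and 14 in Alb-D2KO adult. On 7 autosomes (2, 4, 6, 7, 9, 14 and 18) all 6 lists had such a peak, and on 4 more (8, 12, 16 and 19) both adult lists and no neonatal list did. Chromosomes 10 and 13 had none in any list, although their closing hexamer runs measured 217 and 188 bp. The runs ranged from 37 to 695 bp over the 18 autosomes, with the longest on chromosome 14. Cover of the last 1 kb was not always cover of the run itself: on chromosome 9 between 686 and 843 bp were covered in the 6 lists, and 0 bp of its run. How many of all 1 kb steps of the autosomes a peak touched was not computed. The counts for the last 1 kb thus stand without a background.

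The heights of these terminal peaks, as the −log10 p that the authors' caller averaged over each peak, differed by age as well. On chromosome 14, whose run is the longest, it was 7.69 in control P1, 9.04 in Alb-D2KO P1, 11.5 in control P5 and 8.31 in Alb-D2KO P5, against 29.3 in control adult and 21.2 in Alb-D2KO adult. On chromosome 7 the neonatal lists gave 5.56, 4.49, 8.94 and 6.05 in the same order, and the adult lists 25.8 and 29.8. The adult values lay above all neonatal values on both chromosomes. On chromosome 4, which lacks the hexamer, the ages overlapped, with 12.9, 17.5, 18.8 and 18.5 in the neonatal lists and 20.5 and 14.7 in the adult lists. They also overlapped on chromosome 6, which has a run of 94 bp, with 2.90, 1.98, 2.56 and 2.65 against 3.18 and 2.71. On chromosome 12 the adult values were 45.6 and 45.1, and no neonatal list had a peak in the last 1 kb. The listed fold over input on chromosome 12 in control adult was 1.76, near the median of 1.85 for all peaks of the ends in that list. Other hexamer peaks had 1.97 on chromosome 19 in control adult and 1.38 on chromosome 14 in control P5.

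Runs of at least 4 hexamers in a row, joined over gaps of up to 50 bases, were then located on all 19 autosomes, which showed 19 runs in the last assembled 1 kb, 22 further inside the ends and 236 in the rest. Of all 1 kb steps of the autosomes, 0.0116% held such a run. Among terminal runs, a peak touched 5 of 19 in control P1 (26.3%, 95% Wilson interval 11.8 to 48.8), 6 in Alb-D2KO P1, 7 in control P5 and 5 in Alb-D2KO P5. It touched 9 in control adult (47.4%, 27.3 to 68.3) and 12 in Alb-D2KO adult (63.2%, 41.0 to 80.9). Among the 236 internal runs of the rest, the share touched was between 13.6% and 19.1% in all 6 lists, with no step between ages. Of the 22 runs further inside the ends, between 18.2% and 22.7% were touched. The outermost 100 kb as a whole, as a share of bases, was covered to 31.1% to 36.1% in the neonatal lists. In the adult lists it was covered to 53.5% and 53.9%. By the same measure the terminal runs were covered to 31.6% to 35.9% in the neonatal lists, and to 54.5% and 61.7% in the adult lists. By height they did stand out in the adult, where the 5 strongest peaks of the ends in each list lay on such runs. The terminal runs were longer than those of the rest, at a median of 213 bp against 54 bp. The part of length in the difference in runs touched was not tested. Intervals cover counting error only.

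**Figure D1:**
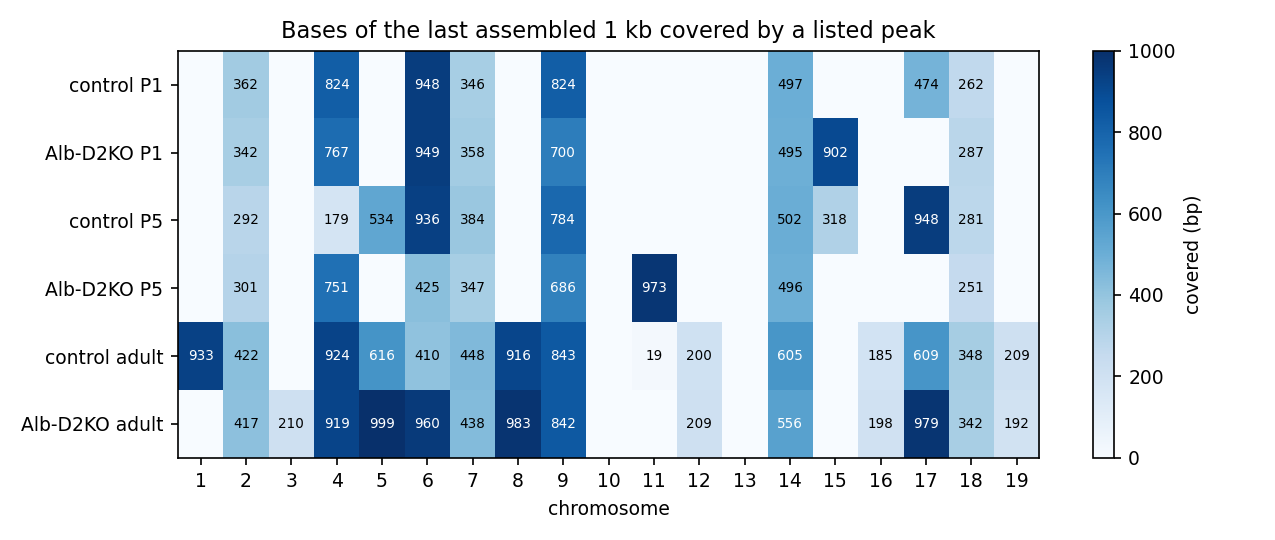
Bases of the last assembled 1 kb covered by a listed peak, for each autosome (columns) and list (rows); the colour and the printed number give covered bp, and an empty cell means no peak. Columns 2, 4, 6, 7, 9, 14 and 18 are filled in all 6 lists, and columns 8, 12, 16 and 19 are filled in the 2 adult lists alone.

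Away from the last 1 kb, cover was highest in the outer 300 kb and lower further in. In 100 kb steps counted inward from the last assembled base, the median covered share over the 19 ends in control P1 was 23.5% in the first step, 28.9% in the second and 25.2% in the next. It was 10.4% in the fourth, 6.43% in the fifth and 1.15% in the sixth. In control adult the same steps gave 52.6%, 35.6%, 33.0%, 14.0%, 8.43% and 1.64%. The adult lists stood above the neonatal lists by the most percentage points in the outermost step, where peaks with a −log10 p above 2 covered 36.2% of the pooled bases in control adult and 34.7% in Alb-D2KO adult. The neonatal lists gave 9.12% in control P1, 13.3% in Alb-D2KO P1, 13.6% in control P5 and 14.1% in Alb-D2KO P5 there. By ratio the second step was further apart, with 25.04% and 26.4% in the adult lists and at most 6.65% in the neonatal lists. Over all 19 ends pooled the decline was smaller, from 31.1% in the first step to 19.1% in the sixth in control P1, because a few ends were covered throughout. Sequence differed with distance too. Soft-masked repeats made up 45.8% of the first step and 36.7% of the sixth, and GC content was 40.4% and 42.1%. How reads with several equal matches were placed is not given in the sources used here, and the part of repeats in the gradient was not tested.

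**Figure D2:**
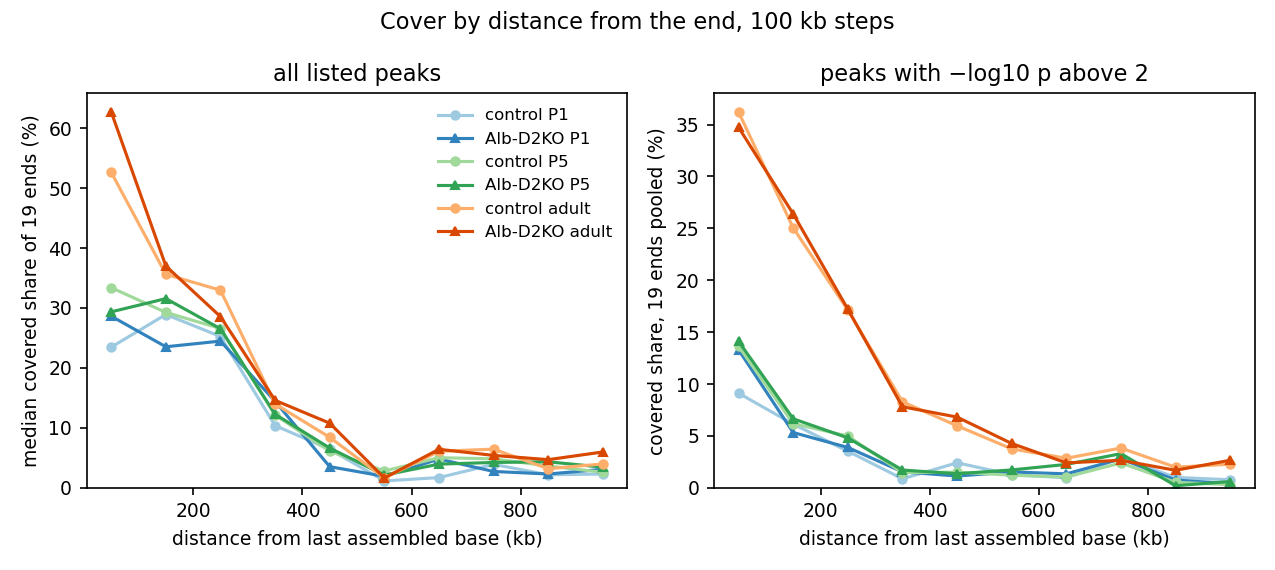
Cover by distance from the last assembled base, in 100 kb steps; the left panel plots the median covered share of the 19 ends with all listed peaks, the right panel the pooled covered share with peaks of −log10 p above 2, 1 line per list. In the right panel the adult lines start at 36.2% and 34.7% and the neonatal lines between 9.12% and 14.1%.

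Over the outermost assembled 100 kb, both adult lists lay above all 4 neonatal lists on 16 of 19 autosomes and below them on none. Of all 100 kb windows of the autosomes, 27.4% had both adult lists above and 26.6% had both below. The 3 exceptions were chromosomes 4, 12 and 14, where the ages overlapped. The analyses of the last 1 kb, the hexamer runs and the outermost 100 kb were chosen after values of the ends had been seen. With −log10 p above 2 the count was again 16, where 22.2% of all windows had both adult lists above and 1.74% had both below. With the 10000 strongest peaks of each list it was 11, and the share of all windows at that setting was not computed.

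Chromosomes 17 and 16 were the most covered here. The outermost 100 kb of chromosome 17 (chr17:94787272-94887271) was covered to 76.4% in control P1, 69.8% in Alb-D2KO P1, 77.0% in control P5 and 74.8% in Alb-D2KO P5. In the adult it was covered to 98.3% in control and 97.2% in Alb-D2KO. It holds predicted and noncoding genes such as Gm1976 and Gm26734 and no protein-coding gene. That of chromosome 16 (chr16:98007769-98107768), with A630089N07Rik and B230307C23Rik, was covered to 73.2%, 74.6%, 81.3% and 80.6% in the neonatal lists and 91.8% and 93.7% in the adult lists. On chromosome 11 the ages were far apart, with 29.7%, 33.5%, 43.4% and 36.1% against 73.3% and 82.2%. Chromosome 15 had 23.5%, 28.6%, 33.4% and 29.4% in the neonatal lists, and 70.5% and 65.5% in the adult lists. Chromosome 7 was the opposite extreme: under 0.5% was covered in every list, and all of it lay in the terminal hexamer run.

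**Figure D3:**
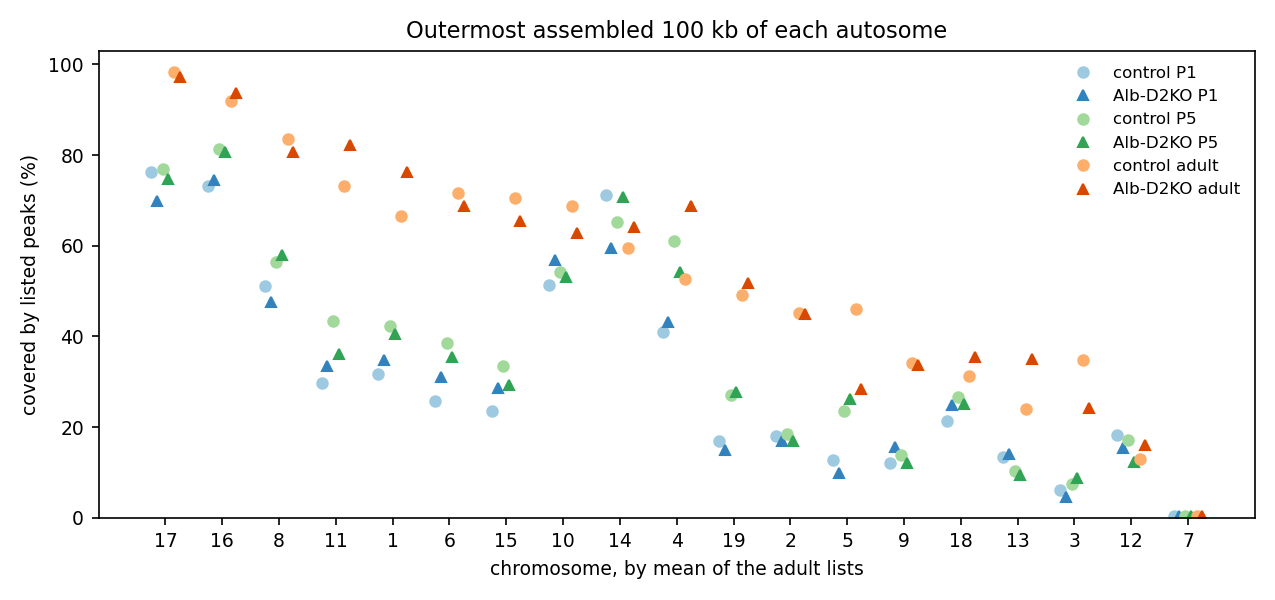
Covered share of the outermost assembled 100 kb of each autosome (x axis, by the mean of the adult lists); each point is 1 list, circles control and triangles Alb-D2KO. The 2 adult points stand above the 4 neonatal points on 16 of 19 autosomes, and chromosome 7 lies under 0.5% in all lists.

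Over their full 3 Mb, the ends were less covered than the rest of the same chromosomes. The covered share of all ends pooled was 15.2% in control P1, 15.7% in Alb-D2KO P1, 16.6% in control P5, 16.8% in Alb-D2KO P5, 15.0% in control adult and 14.3% in Alb-D2KO adult. The rest of the autosomes had 19.4%, 19.8%, 20.5%, 20.9%, 16.5% and 16.0% in the same order. The ratio of end to rest was thus between 0.788 and 0.812 in the neonatal lists and 0.909 and 0.893 in the adult lists. In each list the end was covered more than the rest on 6 of 19 autosomes (95% Wilson interval 15.4% to 54.0%), and these were chromosomes 18, 17, 10, 13, 3 and 14 each time. The pooled ratio rested on a few ends: without chromosomes 17 and 18, a choice made after seeing the data, it was 0.517 in control P1 and 0.742 in control adult. It also turned with the length taken, since the last 1 Mb alone gave 1.14 in control P1 and 1.57 in control adult. With −log10 p above 2 the adult ratios were 1.19 and 1.18.

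The 19 ends differed widely from each other, in nearly the same order in each list (Spearman's rho between lists 0.975 to 0.998 over the 19 ends). By the median over the lists chromosome 18 had the highest ratio, while in both adult lists chromosome 17 did (2.36 and 2.27, against 2.16 and 2.15). The end of chromosome 18 was covered to 52.6% in control P1, 54.3% in Alb-D2KO P1, 52.1% in control P5, 52.9% in Alb-D2KO P5, 35.3% in control adult and 34.0% in Alb-D2KO adult. It was the most covered 3 Mb window of its chromosome in all 6 lists. The end of chromosome 17 had 65.0%, 66.7%, 68.7% and 70.1% in the neonatal lists and 41.9% and 38.9% in the adult lists, against 17.1% to 22.1% in the rest of chromosome 17. The end of chromosome 10, next in the order, had 30.6%, 31.1%, 30.5% and 31.6%, then 22.4% and 20.4%. The lowest ratios were those of chromosomes 7, 4 and 2, where 2.01%, 2.18% and 2.43% of the end were covered in control P1 and 3.96%, 3.52% and 4.004% in control adult. The next chromosomes in the order, 15, 16 and 1, had median ratios of 0.196, 0.200 and 0.234, and their ranges over the lists overlapped.

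**Figure D4:**
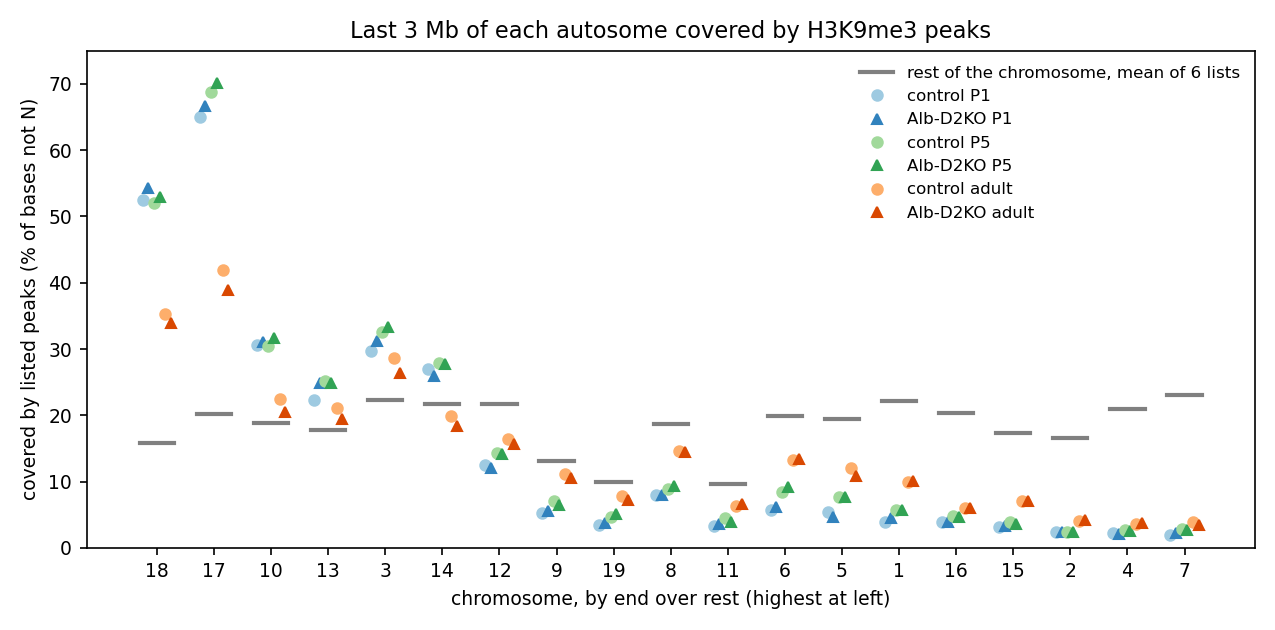
Covered share of the last 3 Mb of each autosome, ordered by the median ratio of end to rest; each point is 1 list and the grey bar is the mean covered share of the rest of that chromosome over the 6 lists. The first 6 chromosomes (18, 17, 10, 13, 3 and 14) have their neonatal points above the bar, and the 2 adult points of chromosome 14 lie below it; all points of the other 13 lie below theirs.

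Base composition varied along the same order, and gene content less closely. The end of chromosome 17 had 2 protein-coding genes, 37.7% GC and 46.2% masked repeats, and that of chromosome 18 had 7 genes, 37.7% GC and 45.3% masked repeats. The end of chromosome 4 had 71 genes, 49.8% GC and 22.9% masked repeats, and that of chromosome 7 had 42 genes, 48.6% GC and 22.2% masked repeats. Across the 19 ends, the covered share correlated with the masked share at Pearson's r = 0.913 and Spearman's rho = 0.967 in control P1, and at r = 0.958 and rho = 0.981 in control adult. With GC content the values were r = -0.772 and rho = -0.937 in control P1 and r = -0.877 and rho = -0.958 in control adult. With protein-coding genes per Mb they were weaker, at r = -0.293 and rho = -0.628 in control P1 and r = -0.398 and rho = -0.625 in control adult, and the end of chromosome 10, among the most covered, had the most genes (129). Leaving out the 2 ends farthest from the median kept r at 0.918 and 0.956 for the masked share. All ends of a list share a library and its depth, so these are descriptions without a test. Compared with the rest, the ends together had more protein-coding genes (13.2 per Mb against 8.58), slightly more GC (43.2% against 41.9%) and slightly fewer masked bases (32.2% against 33.5%). The first 3 Mb of assembled sequence at the centromeric side, the nearest counterpart, was covered to a mean of 20.7% in control P1 and 20.1% in control adult.

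The contrast between ends was smaller in the adult lists than in the neonatal lists. In the 6 ends covered more than the rest, both adult lists lay below all 4 neonatal lists, with an adult mean of 0.597 times the neonatal mean on chromosome 17, 0.654 on chromosome 18 and 0.868 on chromosome 3. In the other 13 ends, both adult lists lay above all 4 neonatal lists, from 1.21 times on chromosome 12 to 2.03 times on chromosome 15. Of all 3 Mb windows of the autosomes, 46.9% had both adult lists above and 36.7% had both below. Composition ran with the direction here too. All 12 ends with a GC content of 42% or more had the adult lists above, and in the rest of the genome 68.7% of windows of that GC content did. Of the 7 ends under 42% GC, 6 had the adult lists below, and in the rest 54.7% of such windows did. The sign at the covered ends depended on the limit: with −log10 p above 2, adult lists lay above in 18 of 19 ends and below in 0, where 82.1% and 3.24% of all windows did.

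Between Alb-D2KO and control, the ends differed little at any age. The pooled cover of Alb-D2KO was 1.03 times that of control at P1, 1.01 times at P5 and 0.949 times for adult liver, and in the rest of the autosomes it was 1.02, 1.02 and 0.967 times. Alb-D2KO was higher in 13 of 19 ends at P1, in 9 at P5 and in 5 for adult liver. In the rest of the chromosomes Alb-D2KO was higher on all autosomes at P1 and on all but chromosomes 7 and 19 at P5. For adult liver it was higher there on chromosomes 4 and 7 alone. Single ends ranged from 0.844 to 1.16 at P1, from 0.879 to 1.09 at P5 and from 0.887 to 1.06 for adult liver. With −log10 p above 2 the pooled values were 1.23, 1.11 and 0.954, against 1.06, 1.03 and 0.961 in the rest. The excess at P1 was thus larger with the stricter limit. Most of both neonatal rises lay in the end of chromosome 17. At that limit it had 188.4 kb covered in control P1 and 303.8 kb in Alb-D2KO P1. All ends had 0.821 and 1.01 Mb. At P5 it had 117.7 kb in control and 201.0 kb in Alb-D2KO, and all ends had 0.896 and 0.998 Mb. Other ends changed in both directions. The ratio without chromosome 17 was not computed.

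Windows of 100 kb were called where at least 10 kb was covered in the higher list and the covered lengths differed at least 1.5-fold. At P1, 2 of 182 windows of the ends were covered more in Alb-D2KO and 4 less, where 3.48% and 3.62% of all autosomal windows were. At P5 there were 3 more and 5 less of 195, against 3.71% and 3.31%. In the adult there were 3 more and 12 less of 230, against 3.74% and 6.68%. All 6 shares lay below those of the whole autosomes. No window was called in the same direction at P1 and P5. The only window called in the same direction at P1 and in the adult was chr12:118929023-119029022, which overlaps part of the gene of the transporter Abcb5 (chr12:118867824-118966421). It was covered over 14.1 kb in control and 8.90 kb in Alb-D2KO at P1, over 17.1 and 12.7 kb at P5, and over 22.4 and 14.1 kb for adult liver. At P1 and in the adult none of this cover came from peaks with a −log10 p above 2.

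Most genes of the ends carried no peak. Of 668 protein-coding genes of at least 2 kb lying in the ends, 400 (59.9%) had no covered base in any list, compared with 48.8% of such genes on all autosomes. Only 8 (1.20%) were covered over at least 50% of their body in all 6 lists, compared with 1.59%. The most steadily covered were A630089N07Rik and B230307C23Rik at the tip of chromosome 16. A630089N07Rik (chr16:98001310-98082450) was covered to 84.8% in control P1, 86.6% in Alb-D2KO P1, 90.8% in control P5, 92.6% in Alb-D2KO P5, 95.5% in control adult and 98.0% in Alb-D2KO adult. B230307C23Rik had 81.1%, 87.9%, 90.1%, 87.5%, 99.7% and 94.6%. Next came the olfactory receptor genes Olfr794, Olfr784, Olfr790 and Olfr781 on chromosome 10, with lowest values over the lists of 68.8%, 67.3%, 58.5% and 51.6%. 2610044O15Rik8 near the tip of chromosome 8 (51.2% to 79.5%), 2010315B03Rik on chromosome 9 (up to 70.6%), the vomeronasal receptor gene Vmn2r87 on chromosome 10 (49.1% to 85.2%) and the predicted gene Gm45871 on chromosome 18 (48.9% to 69.8%) completed the first 10.

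The largest gene family of the ends was a cluster of olfactory receptor genes on chromosome 10. These genes encode odorant receptors of sensory neurons. All 60 protein-coding members in the ends lay in this cluster (chr10:128989431-130214403), 1 had no covered base in any list, and 35 were covered to at least 50% on average over the lists. The median covered share of the 60 genes was 66.6% in control P1, 74.5% in Alb-D2KO P1, 68.2% in control P5 and 69.4% in Alb-D2KO P5. In the adult it was 30.99% in control and 25.2% in Alb-D2KO. Both adult lists lay below all 4 neonatal lists for 35 of the 60 genes (58.3%) and above them for 4. Among protein-coding genes of all autosomes 8.69% had both adult lists below and 10.2% had both above. Olfactory receptor genes elsewhere on the autosomes pointed in the same direction, with 403 of 1068 (37.7%) below and 71 above. The cluster's members are neighbours and share broad peaks, so they do not count as independent cases.

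The genes with the widest gap between neonatal and adult cover were Olfr800, Olfr802, Olfr788, Olfr782 and Olfr791 in the one direction. Olfr802 was covered to 86.4% and 84.5% at P1 and 82.6% and 74.1% at P5 (control, then Alb-D2KO), and to 15.3% and 17.3% in the adult. In the other direction they were Ptchd3 on chromosome 11, B3glct on chromosome 5, Gm3952 on chromosome 8, Vmn2r18 on chromosome 5 and Olfr765 on chromosome 10. Ptchd3, which encodes a patched domain protein, was covered to 22.6%, 12.7%, 41.7% and 37.7% in the neonatal lists and to 81.1% and 84.5% in the adult lists. B3glct, which encodes a glucosyltransferase that modifies thrombospondin repeats, had 9.24%, 9.27%, 22.9% and 21.7%, then 62.8% and 61.1%. Of the 609 genes in the ends that are no olfactory receptors, 56 (9.20%) had both adult lists above and 14 (2.30%) had both below. On all autosomes 10.2% of genes had both above and 8.69% had both below, so the share above was near that of all genes.

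Genes ranked by a difference between genotypes that kept its sign at P1 and P5 also lay in the olfactory receptor cluster. Covered more in Alb-D2KO were Olfr818, Olfr770, Olfr804, Olfr823 and Olfr808, and covered less were Olfr812, Olfr816, Olfr826, Olfr806 and Olfr780. Olfr818 was covered to 23.4% in control and 80.1% in Alb-D2KO at P1 and to 60.1% and 96.0% at P5, with 21.5% and 32.0% in the adult. Olfr812 was covered to 66.4% and 38.0% at P1 and to 82.2% and 47.4% at P5, with 4.79% and 0% in the adult. Genes of both directions lay side by side in 1 cluster, and the median of the 60 genes differed less between genotypes than these extremes.

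**Figure D5:**
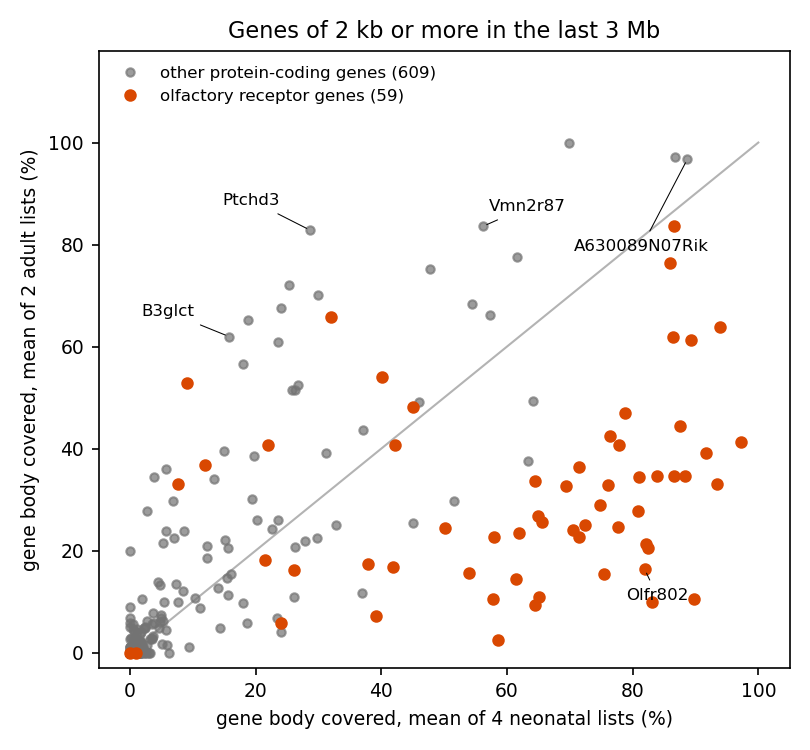
Gene body covered in the 4 neonatal lists (x axis, mean) and the 2 adult lists (y axis, mean) for the 668 protein-coding genes of at least 2 kb in the ends, with olfactory receptor genes in orange and a line at equality. Most orange points lie under the line, and genes such as Ptchd3 and B3glct lie above it.

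The imprinted domain of distal chromosome 7 holds genes expressed from 1 parental copy, among them the growth factor gene Igf2 and the growth inhibitor Cdkn1c. Of its 19 protein-coding members in the list used, 14 had no covered base in any list, Cdkn1c, Ascl2, Phlda2, Cd81 and Ins2 among them, and the noncoding H19 had none either. Among protein-coding genes of at least 2 kb, 59.9% in the ends and 48.8% on all autosomes had no covered base. The whole end of chromosome 7 was among the least covered, at 2.01% to 3.96% over the lists. Igf2 was covered to 1.73% in Alb-D2KO P5 and to 0% in the other 5 lists. Tnfrsf23, a decoy receptor gene of the TNF receptor family, was covered to 0%, 2.61%, 16.5% and 9.84% in the neonatal lists and 15.6% and 11.2% in the adult lists, and its neighbour Tnfrsf22 to 2.77% and 8.78% in the adult lists alone. The most covered was Kcnq1ot1, the long antisense RNA that silences its neighbours in cis. Its body (chr7:143203458-143296549, minus strand) was covered to 37.5% in control P1, 38.8% in Alb-D2KO P1, 36.6% in control P5, 36.3% in Alb-D2KO P5, 30.8% in control adult and 29.3% in Alb-D2KO adult. The lists were close to each other here, and Kcnq1, the potassium channel gene whose body overlaps it, had 8.52% to 11.3%. No peak of any list held the start site of Kcnq1ot1, where the imprinting control region lies. The widest peaks lay inside the body, such as one of 18880 bp in control P1, whose midpoint was 60961 bp past the start, and one of 23623 bp in Alb-D2KO P1, 70779 bp past it.

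Other families of the ends divided in the same way. All 26 keratin genes and all 9 Hoxc genes of chromosome 15, structural proteins of epithelia and patterning factors, had no covered base in any list. Of 10 zinc finger genes 5 had none, a share near the 48.8% and 59.9% given above for all autosomes and for the ends. Zfp445, a regulator of imprinting on chromosome 9, was covered to 38.0%, 59.4% and 55.6% in control at P1, P5 and adult and to 37.8%, 48.6% and 42.6% in Alb-D2KO, and Zfp950 on chromosome 19 had 29.9% to 42.8%. Zkscan7, next to Zfp445, had 14.5%, 23.8%, 35.9% and 30.6% in the neonatal lists and 49.6% and 53.3% in the adult lists. Of 8 chemokine receptor genes 3 had no cover, and the highest was Ccr9, at 5.60% to 13.2%. Of 7 liver function genes 5 had none in any list, again close to the share of 59.9% over all genes of the ends, among them Cyp8b1, a sterol hydroxylase of bile acid synthesis, the apolipoprotein gene Apof, and Fgf15, a bile acid signal of the gut. Dhcr7, which makes cholesterol, had 1.13% in control adult alone. Of the genes of the 2-cell embryo, Tcstv1 had no cover and Tcstv3 had 4.07% in Alb-D2KO adult alone.

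The strongest single peaks differed by age. The peak on chromosome 2 shown above had a −log10 p of 19.1 in control P1, 21.8 in Alb-D2KO P1, 25.5 in control P5 and 27.0 in Alb-D2KO P5, and it was the strongest of the ends in 3 of these lists. The tatc run on chromosome 6 gave 17.05 in control P1 and 38.0 in Alb-D2KO P1, then 10.5 in control P5 and 9.50 in Alb-D2KO P5. Alb-D2KO was higher at P1 and lower at P5. In the adult lists the 5 strongest peaks of the ends all ended between 33 and 96 bases from the last assembled base, on chromosomes 12, 19, 14, 18 and 7 in control and 12, 7, 19, 3 and 18 in Alb-D2KO. The widest peaks were adult as well. One of 82.6 kb in Alb-D2KO adult lay over Ptchd3 and the noncoding Gm12586 on chromosome 11, where the control adult list had one of 50.5 kb, and one of 77.8 kb in control adult lay at the tip of chromosome 17. The widest neonatal peak, of 49.2 kb in control P5, lay over Olfr791, Olfr792 and Olfr794.

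By the median, peaks of the ends were similar in size and score to the others. Their median width was 1005 bp in control P1 and 894 bp in control adult, against 961 and 819 bp in the rest, and their median −log10 p was 1.52 and 1.62 against 1.51 and 1.60. The extremes differed more. The highest −log10 p was 19.1 in control P1 and 45.6 in control adult, against 1603 and 421 in the rest. Peaks of 20 kb or wider made up 0.252% in control P1 and 0.366% in control adult, against 0.336% and 0.184% in the rest. By the authors' annotation, 57.2% were intergenic in control P1 (55.7 to 58.7) and 60.6% in control adult (59.2 to 62.0), against 65.5% and 66.6% in the rest. At a transcription start lay 5.59% (4.95 to 6.31) and 5.31% (4.71 to 5.97), against 3.86% and 3.54%. The ends also had more protein-coding genes per Mb, 13.2 against 8.58, and the part of gene density in these shares was not tested. The intervals cover counting error only and take neighbouring peaks of 1 list as separate cases. Of the bases covered in any list, 1.46 Mb (8.47%) in the ends were covered in all 6 lists, compared with 6.90% in the rest. Of these, the largest parts lay in the ends of chromosomes 17 (276 kb) and 18 (224 kb). Shared bases over all bases covered in either genotype (the Jaccard index) were 0.467, 0.487 and 0.398 in the ends at P1, P5 and adult, and 0.453, 0.461 and 0.342 in the rest.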

How the data were processed

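H3K9me3 ChIP-seq libraries of 6 mouse liver samples (control and Alb-D2KO at P1, P5 and adult) and their 6 inputs were aligned by the authors to mm10 with BWA in Partek Flow, and broad peaks were called with MACS2 at a p-value limit of 0.05 over the matching input. The deposited lists give for each peak the −log10 of the p-value and q-value averaged over the region, and the fold, a linear ratio over input. How several samples or sequencing runs of a group were merged is not given in the sources used here, so each list was treated as 1 library. Depth is unknown. The 3 further lists, which hold only the authors' comparison of Alb-D2KO with control, were not used, and the results planned from them were not computed.

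Covered bases were counted with Python (numpy, pandas), peaks clipped to the region, per base that is not N in GRCm38. Coordinates are 1-based. Genes were taken from GENCODE M21, while the authors used M24. The counting was tested on simulated intervals. The members and lists were chosen with earlier results of these data known. Genes named were the 10 with the highest smallest cover over the lists, the 5 with the largest change in each direction between genotypes (same sign at P1 and P5) and between ages, the 3 highest and lowest ends, each list's strongest peaks, and fixed gene families. No test was run, since each genotype and age has 1 library. Fits that pool libraries over ages or genotypes were not made. Alternatives varied the p-value limit, the number of peaks, the length of the end, gaps and the counting rule. Wilson intervals are 95%. The sequences of the hexamer runs are not reported here.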

Additional observations from a re-analysis of the deposited data

Results flagged for a closer look

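The genotype difference in pooled cover of the ends pointed in opposite directions between ages. Alb-D2KO over control was 1.03 at P1 and 1.01 at P5, and 0.949 in the adult, with 1 library per genotype and age. This difference between ages was not tested, and the rest of the autosomes gave 1.02, 1.02 and 0.967. Counted as peaks per Mb in place of covered bases, the P1 value was 0.937, so that its direction there depended on the counting rule.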

How the results depend on the processing

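No paired analysis was possible because no result comes from a test. The genotype pairs that the 3 ages form were not tested. Of 169 values under alternatives, 99 stayed within the counting interval or within 1.5 times the count, 59 moved and 11 turned direction. The alternatives without chromosomes 17 and 18 and without the outermost 100 kb, and the stricter limits in the comparisons between ages, were chosen after seeing the data. Those on the comparison lists were not run. Values follow the order control P1, Alb-D2KO P1, control P5, Alb-D2KO P5, control adult, Alb-D2KO adult.

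The ratio of end to rest turned above 1 with the last 1 Mb (1.14, 1.13, 1.18, 1.16, 1.57 and 1.55), in both adult lists with −log10 p above 2 (1.19 and 1.18) and in both adult lists with the 10000 strongest peaks (1.51 and 1.49). In neonatal lists it moved to 0.661 (control P1) and 0.862 (Alb-D2KO P5) with −log10 p above 2, and to 0.854, 0.876 and 0.948 (Alb-D2KO P1, control P5, Alb-D2KO P5) with the 10000 strongest. The last 5 Mb gave 0.733 in control P1, 0.752 in Alb-D2KO P5, and 0.824 and 0.812 in the adult. Peaks per Mb gave 0.756 in control P5, and 0.779 and 0.777 in the adult. Without chromosomes 17 and 18 it was 0.517, 0.519, 0.555, 0.548, 0.742 and 0.730, and without the outermost 100 kb 0.829 and 0.807 in the adult. The number of ends above the rest, 6 in each list, was 10 in Alb-D2KO P5 and 13 in both adult lists with the last 1 Mb, 12 in both adult lists with −log10 p above 2, and 11 in both with the 10000 strongest.

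Alb-D2KO over control at P1 was 1.23 with −log10 p above 2, 1.25 with the 10000 strongest and 0.937, turned, with peaks per Mb. At P5 it was 1.11 with −log10 p above 2. The rises at that limit lay mostly in the end of chromosome 17, as given above. Windows covered more and less (2 and 4 at P1, 3 and 5 at P5, 3 and 12 in the adult) became 13 and 7, 15 and 9, and 16 and 22 with −log10 p above 2, of 32, 38 and 91 windows in place of 182, 195 and 230. At that limit 37.5% and 28.2%, 33.8% and 31.1%, and 22.0% and 26.8% of all autosomal windows were called, against 40.6% and 21.9%, 39.5% and 23.7%, and 17.6% and 24.2% in the ends. With the 10000 strongest, windows covered more were 7, 8 and 5, of 17, 23 and 38. The last 1 Mb gave 1 and 2 at P1, 1 less at P5, and 0 and 2 for adult liver, of 85, 90 and 99. The last 5 Mb gave 6 and 8 at P1, 5 and 9 at P5, and 8 more for adult liver, of 296, 323 and 384. By number of peaks there were 5 and 18 at P1, 13 more at P5 and 17 more in the adult, of 182, 195 and 230. A limit of at least 2 times gave 1 and 1, 1 and 2, and 1 and 3 of the same windows. For these settings the share of all autosomal windows was not computed, so the counts stand without a background. The causes were not tested.

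With 1 library per group, depth unknown and adult and neonatal lists that differ outside the ends too, no difference between ages or genotypes can be separated from a difference between libraries.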
